A study of Mus musculus with 6 samples.

Results

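The genes described here were 10 genes of the mouse germline, Dazl, Ddx4, Sycp3, Mael, Stk31, Slc25a31, Tex19.1, Hormad1, Asz1 and Tex101, which are known as genes that somatic cells keep silent by methylating DNA at their promoters. They were taken by gene symbol from the deposited table, which held all 10 of them among 28584 symbols. RNA of mouse embryonic stem cells (mESCs) at passage 10 was sequenced from 6 libraries, 2 biological replicates, per the study, in each of 3 groups. All cells came from 1 line, derived from a C57BL/6 × 129S6 blastocyst and grown for 5 passages on mitomycin C-inactivated embryonic fibroblast feeders before the media were changed. LIF-ESCs then received 1000 U/mL leukemia inhibitory factor (LIF), OSM-ESCs received 10 ng/mL oncostatin M (OSM) in its place, and -LIF-ESCs received neither cytokine, all in the same basic medium with serum. Both cytokines signal through gp130 and Stat3, and the study asked whether OSM can stand in for LIF. These libraries measure RNA and not DNA methylation, and the global methylation assay that the study made apart from them is not analysed here, so no statement is made on the methylation of any promoter.

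Germline genes of this kind mostly have promoters rich in CpG dinucleotides, the sites at which Dnmt1, Dnmt3a, Dnmt3b and their partners methylate DNA. After implantation the embryo methylates these promoters, and the genes come back on only in primordial germ cells, which erase the methylation. In stem cells a further layer of repression comes from PRC1.6, a Polycomb complex that is brought to such promoters by the DNA-binding proteins Mga with Max and E2f6, and from enzymes that methylate histone H3 at lysine 9.

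The 10 genes did not move as 1 block between the groups. Without a cytokine, Dazl, Mael and Tex101 were higher, by 3.94-fold, 2.70-fold and 8.37-fold in mean TPM over LIF-ESCs, and Tex19.1 and Slc25a31 were higher by smaller amounts. Hormad1 and Sycp3 went the other way, at 2.66-fold and 1.59-fold higher mean TPM with LIF than without cytokine. Ddx4 passed the test with LIF alone, Stk31 did not pass it in any comparison, and Asz1 was near the limit of detection throughout. Dazl, Mael, Tex101, Tex19.1, Slc25a31, Hormad1 and Sycp3 also differed between OSM-ESCs and -LIF-ESCs, in the same directions, and 0 of the 9 genes tested passed the test between OSM-ESCs and LIF-ESCs.

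The promoters of the 4 genes called against -LIF-ESCs are shown because CpG sites in them are where DNA methylation could act. Each line gives the 250 bases before the start of transcription on the gene's own strand, 5′ to 3′, from RefSeq on GRCm38.p6, with every CpG in capitals. That of Dazl lies at chr17:50293621-50293870 on the minus strand and holds 20 CpGs. That of Mael, at chr1:166238745-166238994 on the minus strand, holds 18. That of Tex101, at chr7:24672051-24672300 on the minus strand and inside the span that GENCODE M21 gives the gene, holds 14, and that of Hormad1, at chr3:95559427-95559676 on the plus strand, holds 19.
Dazl: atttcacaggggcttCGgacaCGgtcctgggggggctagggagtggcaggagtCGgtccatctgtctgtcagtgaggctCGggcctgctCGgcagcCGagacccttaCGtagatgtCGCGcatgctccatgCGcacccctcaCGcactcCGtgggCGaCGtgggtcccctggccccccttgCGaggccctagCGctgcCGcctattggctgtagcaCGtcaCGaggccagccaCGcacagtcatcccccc
Mael: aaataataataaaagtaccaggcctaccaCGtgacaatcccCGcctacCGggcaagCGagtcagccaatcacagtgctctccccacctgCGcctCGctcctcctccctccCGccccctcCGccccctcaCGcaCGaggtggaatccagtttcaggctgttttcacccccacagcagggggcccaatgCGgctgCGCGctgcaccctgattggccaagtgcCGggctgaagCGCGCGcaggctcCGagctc
Tex101: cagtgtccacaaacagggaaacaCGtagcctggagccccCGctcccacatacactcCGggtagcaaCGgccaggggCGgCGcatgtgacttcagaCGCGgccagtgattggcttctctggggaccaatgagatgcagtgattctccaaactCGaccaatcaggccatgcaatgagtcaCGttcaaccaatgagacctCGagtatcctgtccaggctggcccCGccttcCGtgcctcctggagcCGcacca
Hormad1: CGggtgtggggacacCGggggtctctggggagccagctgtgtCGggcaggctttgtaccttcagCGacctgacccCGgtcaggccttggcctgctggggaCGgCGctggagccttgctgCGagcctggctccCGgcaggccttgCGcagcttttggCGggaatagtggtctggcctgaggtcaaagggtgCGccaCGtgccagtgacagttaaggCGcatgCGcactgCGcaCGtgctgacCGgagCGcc

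All 10 genes had a RefSeq promoter window, taken from 250 bases before to 50 bases after the start. For Stk31 and Hormad1, which have 2 windows each, the first listed was used. CpG density was expressed as observed over expected, the CpG count times the window length divided by the product of the C and G counts. It ranged from 0.575 in Tex19.1 to 0.978 in Ddx4. In 9 of the 10 genes it was above 0.6, against 36.4% of the 27025 genes with a window, whose median was 0.389. Dazl stood at 0.796, Mael at 0.780, Hormad1 at 0.713 and Tex101 at 0.700. Slc25a31 was at 0.826 and Sycp3 at 0.666. The letters CACGTG, the E-box that Max and its partners read, were found in 6 of the 10 windows and in 7.24% of the first windows of all genes. This motif reads the same on both strands. TCCCGC or its reverse complement GCGGGA, the core that E2F proteins read, was found in 6 of the 10 and in 20.0% of those of all genes. No match of one overlapped a match of the other. Hormad1 and Sycp3 held 2 E-boxes each and 1 E2F core, and Mael held 1 E-box and 2 E2F cores. Dazl, Tex101 and Asz1 held neither. Each of these motifs contains a CpG, and the windows of all genes were not matched to the 10 for CpG density. These matches describe letters in the window and not sites bound in these cells.

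**Figure D1:**
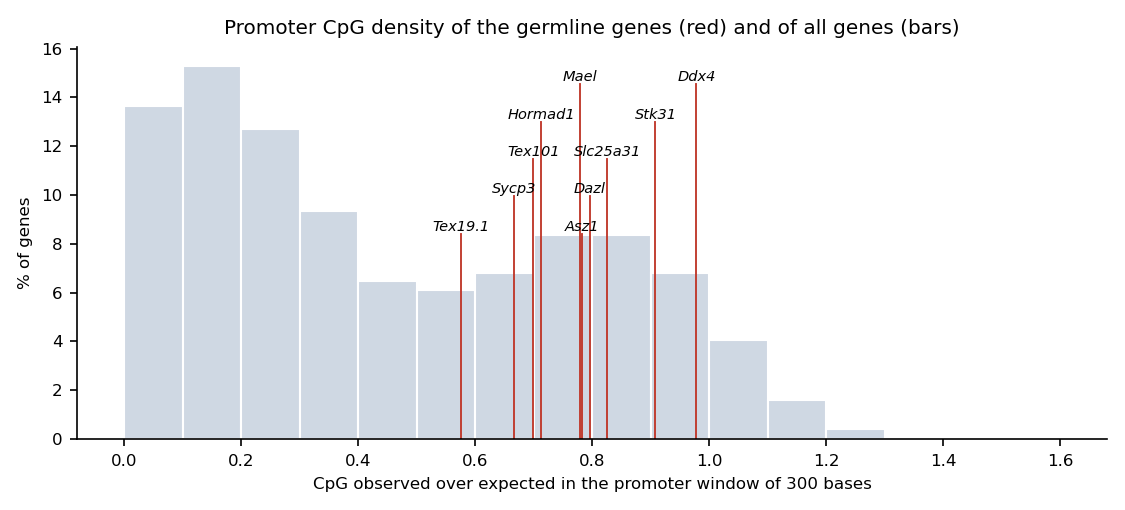
Share of genes (vertical axis, % of genes) by CpG observed over expected in the promoter window (horizontal axis), for all genes as bars and for the 10 germline genes as red lines, whose heights carry no value. Tex19.1 at 0.575 is the lowest of the 10, and the others lie between 0.666 and 0.978.

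The deposited values are TPM, a share of all transcripts in a library, which corrects read counts for gene length and gives every library the same total. Reads could be recovered from them as whole numbers and came to between 20712978 and 28994419 in a library. Differences were tested with limma on log2(TPM + 1) for 18556 genes that reached 1 TPM in 2 or more libraries. This scale understates the change of a gene with a low TPM. A gene was called when its Benjamini-Hochberg adjusted p was under 0.05 and its mean moved by at least 1 on the log2 scale. Of the 10 germline genes, 9 were tested and Asz1 was not. With 2 libraries a group, the smallest two-sided p of an exact permutation test is 0.333, so all p-values rest on the model.

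Libraries were checked for RNA of other cells. Pou5f1, the gene of Oct4, was at 545 TPM on average without cytokine, 1165 with LIF and 1186 with OSM, and the summed TPM of 8 pluripotency markers was 1918 to 1930, 3535 to 3647 and 3295 to 3343. Nanog, another gene of this list, went the other way, at 433 TPM without cytokine, 290 with LIF and 261 with OSM (limma adjusted p = 0.000144 and 6.37e-05). This differs from the study, which from its RNA sequencing named Nanog among genes higher with LIF and OSM. The study also reported less Nanog protein without cytokine, and described the colonies in that medium as differentiated. The labels name ovaries in the text on RNA extraction, while their cell type is embryonic stem cells. Of 10 oocyte markers 6 were in the table, and their summed TPM was between 3.91 and 5.30 in every library. Zp3, a gene of the egg coat, was the highest of them except in -LIF replicate 2, where it was at 1.3 TPM and Figla, an oocyte transcription factor, at 1.93 TPM. Of 6 granulosa markers 4 were in the table. These summed to 20.4 to 24.8 TPM, nearly all from Nr5a2, which stem cells use as well, and Foxl2 and Amh were at most 0.558 TPM on average in any group. The 7 spermatid markers summed to between 0.169 and 1.39 TPM, on 3 to 13 reads a library. Fibroblast markers did differ between the groups, and 8 of 10 were called higher with either cytokine than without. The share over all genes tested was 13.3% with LIF and 14.2% with OSM. Their sum over the 10 genes was 84.6 to 91.0 TPM without cytokine, 261 to 264 with LIF and 378 to 382 with OSM, and Col1a1 was at 23.9, 87.5 and 136 TPM. Col5a1 was the only one of the 10 that was lower with a cytokine, at 43.0 TPM without, 23.9 with LIF and 36.1 with OSM (limma adjusted p = 4.24e-05 and 0.00345). Their part in the results below was not tested. In bulk RNA, a gene that is on in fewer cells and a gene with less RNA in each cell cannot be told apart.

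Against -LIF-ESCs, 4 of the 9 germline genes tested were called with LIF, 3 lower and 1 higher, and the same counts were found with OSM. Over all genes tested, 8.09% were called lower and 13.3% higher with LIF, 21.4% in either direction. With OSM these shares were 7.86%, 14.2% and 22%. The median log2 fold change of the 9 genes was -0.51 with LIF and -0.62 with OSM, against 0.17 and 0.18 over all genes tested. With TPM rescaled by the median ratio of the genes between libraries, the medians over all genes tested were 0.02 and 0.02 and those of the 9 genes -0.65 and -0.81. Higher genes then made up 50.6% of all calls with LIF in place of 62.2%, and 52.1% with OSM in place of 64.3%. Dazl, Mael and Tex101 were called lower and Hormad1 higher in both comparisons, before and after rescaling. Both comparisons use the same -LIF-ESC libraries and are not independent of each other.

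**Figure D2:**
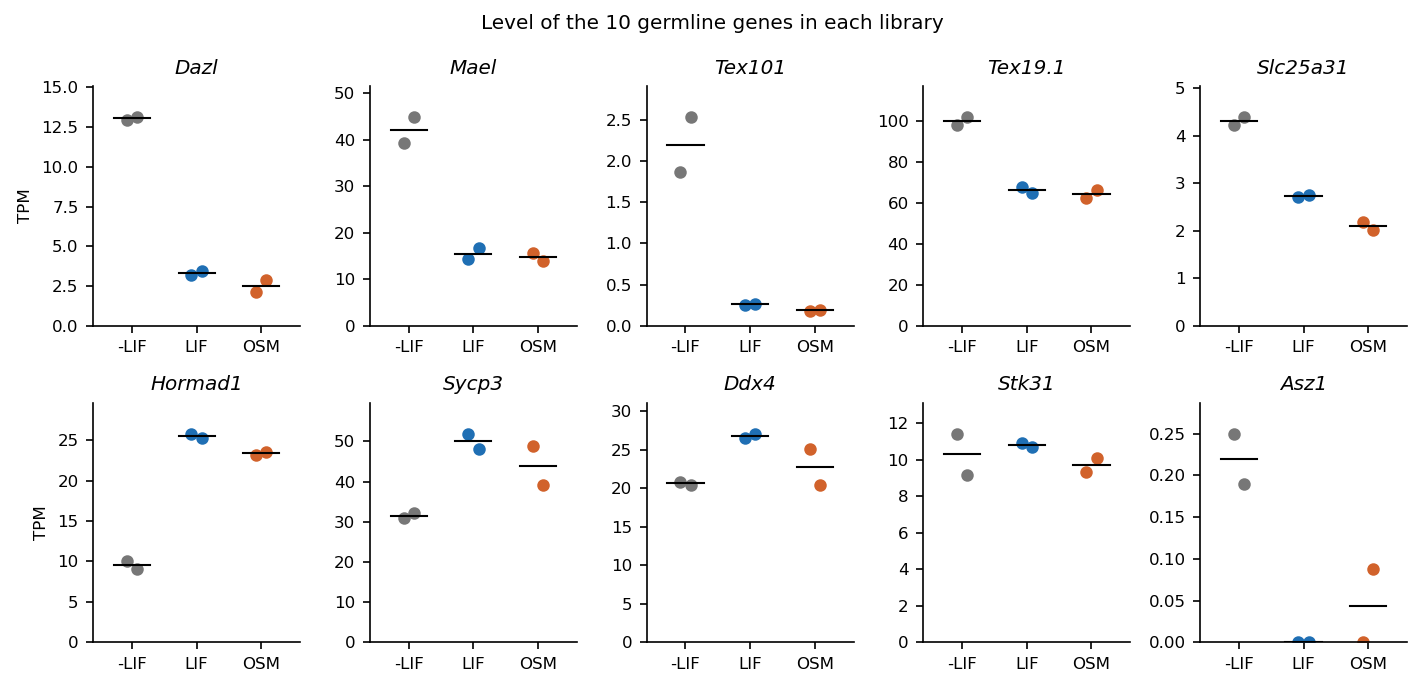
TPM (vertical axis, from 0 in every panel) of each of the 10 genes in the 2 libraries of -LIF-ESCs, LIF-ESCs and OSM-ESCs (points), with the mean of each group as a line. The upper row holds the 5 tested genes that were higher without cytokine, such as Dazl at 13.0 and 13.1 TPM there against 2.12 to 3.43 TPM in the other libraries.

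Dazl, an RNA-binding protein that germ cells need to enter meiosis and to translate their transcripts, had the lowest log2 fold change of TPM + 1 among the 9 genes with either cytokine, whereas with a pseudocount of 0.1 and in voom Tex101 had the lowest. It lies on chromosome 17 of GRCm38 from 50279395 to 50293636. Its level was 13.0 and 13.1 TPM in the libraries without cytokine, 3.19 and 3.43 in those with LIF and 2.12 and 2.89 in those with OSM. Both -LIF-ESC libraries stood far above the other 4, and the OSM-ESC libraries both lay below the LIF-ESC libraries. Its log2 fold change was -1.70 with LIF (standard error 0.12, limma adjusted p = 0.000149) and -2.01 with OSM (standard error 0.12, adjusted p = 8.26e-05). Of all genes tested, only 2.68% had as low or a lower log2 fold change with LIF, and 1.5% with OSM. The reads behind these levels were 432 and 359 without cytokine, 88 and 91 with LIF and 63 and 103 with OSM, taken at an exon length of 2942 bases, the shorter of 2 lengths that give whole reads, since the 3820 bases of the GENCODE M21 annotation do not.

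Mael, or Maelstrom, acts in the piRNA pathway that silences transposons in germ cells. It lies on chromosome 1 from 166201201 to 166238747. Its level was 39.2 and 44.8 TPM without cytokine, 14.5 and 16.6 with LIF and 15.6 and 13.9 with OSM. The -LIF-ESC libraries stood above all others, and the LIF-ESC and OSM-ESC libraries overlapped. The log2 fold change was -1.38 with LIF (standard error 0.10, limma adjusted p = 0.000172) and -1.45 with OSM (standard error 0.10, adjusted p = 0.000144).

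Tex101, a membrane protein of germ cells that is needed for sperm fertility, was low in every library. It lies on chromosome 7 from 24668007 to 24676675. It was at 1.87 and 2.53 TPM without cytokine, 0.257 and 0.268 with LIF and 0.179 and 0.199 with OSM, on 35 and 39 reads, 4 and 4 reads, and 3 and 4 reads. The -LIF-ESC libraries did not overlap the others, although the lower levels rest on a handful of reads each. In reads per library depth, Tex101 was 9.06-fold higher without cytokine than with LIF, with an exact 95% counting interval of 4.36 to 21.8, and 12.5-fold higher than with OSM, with an interval of 5.77 to 32.1. These intervals cover counting error only. On the log2(TPM + 1) scale the changes were -1.33 (limma adjusted p = 0.00114) and -1.42 (adjusted p = 0.000887), and with a pseudocount of 0.1 they were -2.65 and -2.98.

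Tex19.1 and Slc25a31 also were lower with a cytokine at an adjusted p under 0.05, without reaching a log2 fold change of -1. Lower genes at that p alone made up 25.9% of all genes tested with LIF and 25.4% with OSM. Tex19.1, which is active in pluripotent cells, germ cells and placenta, had the highest level of the 10 genes in every group. On chromosome 11 from 121146143 to 121148319, it was at 97.8 and 102 TPM without cytokine, 67.7 and 65.0 with LIF and 62.5 and 66.3 with OSM. The -LIF-ESC libraries lay above the rest, and the other groups overlapped. Its log2 fold change was -0.58 with LIF (standard error 0.05, limma adjusted p = 0.000234) and -0.62 with OSM (standard error 0.05, adjusted p = 0.000182). Tex19.2, a close relative of Tex19.1 on the same chromosome, could share reads with it, since the handling of reads with several matches is not given in the sources used here.

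Slc25a31 encodes an ATP/ADP carrier of the inner mitochondrial membrane that male germ cells use. On chromosome 3 from 40708855 to 40726096, it was at 4.23 and 4.39 TPM without cytokine, 2.70 and 2.76 with LIF and 2.19 and 2.01 with OSM. The 3 groups did not overlap, with OSM-ESCs the lowest. Its log2 fold change was -0.51 with LIF (limma adjusted p = 0.00495) and -0.78 with OSM (adjusted p = 0.000961). With OSM it was called with a pseudocount of 0.1, where the value was -1.01, and in limma's voom on recovered reads, where it was -1.17.

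Hormad1 was the only one of the 9 genes called higher with a cytokine. It encodes a protein of meiotic chromosome axes that promotes DNA break formation and pairing. On chromosome 3 from 95559677 to 95587671, it was at 10.1 and 9.07 TPM without cytokine, 25.8 and 25.3 with LIF and 23.2 and 23.5 with OSM. The -LIF-ESC libraries lay far below the others, and the LIF-ESC libraries both lay above the OSM-ESC libraries. The log2 fold change was 1.33 with LIF (standard error 0.06, limma adjusted p = 3.9e-05) and 1.2 with OSM (standard error 0.06, adjusted p = 5.09e-05), and after rescaling it was 1.16 and 1.03.

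Sycp3, a structural protein of the synaptonemal complex that holds paired chromosomes together, was also higher with a cytokine, below the limit for a call. Higher genes at an adjusted p under 0.05 alone were 42.2% of all genes tested with LIF and 42.9% with OSM. On chromosome 10 from 88459569 to 88473236, Sycp3 was at 30.8 and 32.1 TPM without cytokine, 51.9 and 48.1 with LIF and 48.7 and 39.1 with OSM. The -LIF-ESC libraries were the lowest, and OSM replicate 2 was the lowest of the others. The log2 fold change was 0.65 with LIF (standard error 0.11, limma adjusted p = 0.00339) and 0.46 with OSM (standard error 0.11, adjusted p = 0.0127). With OSM it had an adjusted p of 0.0511 after rescaling and of 0.0675 without -LIF replicate 1. Of the exon bases of Sycp3, 52.2% are also exon bases of Chpt1 on the opposite strand, and the strand setting of the read counting is not given in the sources used here. Chpt1, an enzyme of phosphatidylcholine synthesis, was at 5.73 and 5.32 TPM without cytokine, 9.41 and 8.98 with LIF and 9.23 and 7.87 with OSM, so the level given for Sycp3 is uncertain.

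Ddx4, the RNA helicase known as Vasa or Mvh and a defining marker of germ cells, was at 20.8 and 20.5 TPM without cytokine, 26.5 and 27.1 with LIF and 25.1 and 20.4 with OSM. It lies on chromosome 13 from 112598333 to 112652475. LIF-ESCs were above -LIF-ESCs in both libraries, whereas the OSM-ESC libraries spanned the -LIF-ESC libraries. The log2 fold change was 0.36 with LIF (standard error 0.10, limma adjusted p = 0.0202) and 0.13 with OSM (adjusted p = 0.292). After rescaling it was 0.19 (adjusted p = 0.0941) and -0.05. Without any 1 of the -LIF-ESC or LIF-ESC libraries the adjusted p for LIF-ESCs was 0.0702 to 0.0871, while the log2 fold change was 0.346 to 0.375, close to that with all libraries. Without OSM replicate 2, the log2 fold change with OSM was 0.27 (adjusted p = 0.015).

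Stk31, a kinase-like protein with a Tudor domain that is found in germ cells, was at 11.4 and 9.20 TPM without cytokine, 10.9 and 10.7 with LIF and 9.36 and 10.1 with OSM. It lies on chromosome 6 from 49395604 to 49469501. The -LIF-ESC libraries held both the highest and the lowest value, so the groups overlapped. The log2 fold change was 0.07 with LIF (95% interval -0.21 to 0.34) and -0.07 with OSM (95% interval -0.34 to 0.20), with limma adjusted p = 0.60 in both. A change within these bounds could not be told from 0.

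Asz1, a protein with ankyrin repeats that acts in the piRNA pathway, was listed with 8 and 5 reads in the libraries without cytokine, 0 and 0 in those with LIF and 0 and 3 in those with OSM. It lies on chromosome 6 from 18050964 to 18109061. Its TPM did not exceed 0.250, so it failed the filter of 1 TPM. Set against a limit of 3 reads over the group, it was at least 4.24-fold higher without cytokine than with LIF, a value that leaves out the counting error of the 13 reads without cytokine. Against OSM-ESCs the ratio was 5.12, with an exact 95% counting interval of 1.41 to 28 for counting error only.

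**Figure D3:**
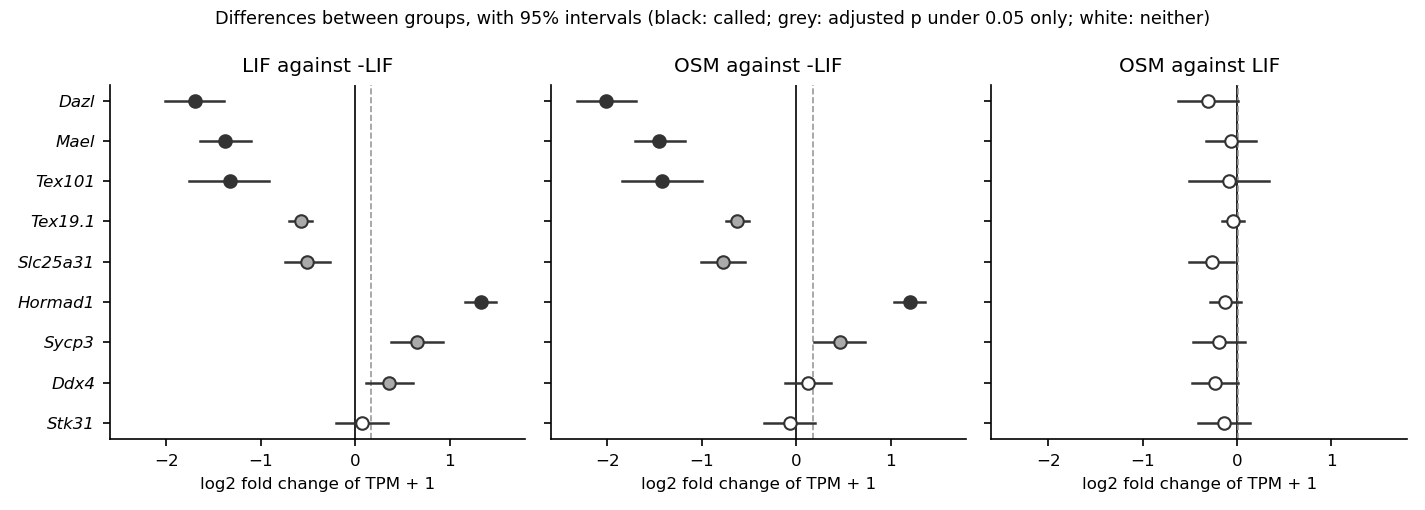
Log2 fold change of TPM + 1 (horizontal axis) with its 95% interval for the 9 genes tested, in LIF-ESCs against -LIF-ESCs, OSM-ESCs against -LIF-ESCs and OSM-ESCs against LIF-ESCs. Black points are called, grey points have an adjusted p under 0.05 only, white points have neither, and the dashed line is the median of all genes tested. In the third panel the points lie between -0.31 and -0.04, and all 9 are white.

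Levels of different genes can be compared in TPM, which is per length. The 10 genes spanned a wide range in each group. Without cytokine the order of mean TPM was Tex19.1 at 99.7, Mael at 42.0, Sycp3 at 31.5, Ddx4 at 20.7, Dazl at 13.0, Stk31 at 10.3, Hormad1 at 9.60, Slc25a31 at 4.31, Tex101 at 2.20 and Asz1 at 0.220. The libraries of the neighbours Stk31 and Hormad1 overlapped in this order. With LIF the order was Tex19.1 at 66.3, Sycp3 at 50.01, Ddx4 at 26.8, Hormad1 at 25.5, Mael at 15.5, Stk31 at 10.8, Dazl at 3.31, Slc25a31 at 2.73 and Tex101 at 0.262. From -LIF-ESCs to LIF-ESCs, Mael thus moved from the second place to the fifth and Hormad1 from the seventh to the fourth. With OSM Hormad1 at 23.4 and Ddx4 at 22.8 overlapped, as did Dazl at 2.50 and Slc25a31 at 2.10. The summed TPM of the 10 genes was 229.5 and 237.5 without cytokine, 203 and 199 with LIF and 189 and 178.5 with OSM.

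In OSM-ESCs compared with LIF-ESCs, 0 of the 9 germline genes tested were called in limma, against 0.0808% of all genes tested. The lowest adjusted p was 0.28, for Slc25a31, the only one of the 9 with an unadjusted p under 0.05, which 15.3% of all genes tested had. In limma's voom on recovered reads the count called was also 0, and the lowest adjusted p over the alternatives was 0.0503, for Ddx4. The mean of each of the 9 genes was lower with OSM, against 47.3% of all genes tested. The log2 fold changes lay between -0.31 in Dazl and -0.04 in Tex19.1, with a median of -0.14 against 0.01 over all genes tested. Dazl had a 95% interval of -0.62 to 0.01, Slc25a31 of -0.50 to -0.03, Ddx4 of -0.48 to 0.01, Hormad1 of -0.28 to 0.04 and Tex19.1 of -0.16 to 0.08, so a log2 difference of -1 on the log2(TPM + 1) scale lay outside each of these intervals. All 10 fibroblast markers had a higher mean with OSM than with LIF, by a median of 0.44 on the log2 scale, and 3 of them had an adjusted p under 0.05, while 7 of 8 pluripotency markers had a lower mean with OSM. Their part in the lower means of the germline genes was not tested.

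Other genes of meiosis and of the piRNA pathway were described from lists drawn up from general knowledge. Of 24 other meiosis genes, 23 were in the table and 18 were tested. With LIF 4 of these were called higher and 5 lower than without cytokine, with a median log2 fold change of 0.07. With OSM 2 were called higher and 7 lower, with a median of -0.08. The shares over all genes tested were 13.3% higher and 8.09% lower with LIF, and 14.2% and 7.86% with OSM. Their medians were 0.17 and 0.18. After rescaling the counts were 3 and 7 with LIF and 1 and 8 with OSM. Smc1b, a cohesin subunit of meiotic chromosomes, went from 14.2 TPM on average without cytokine to 3.59 with LIF and 2.27 with OSM, log2 fold changes of -1.73 and -2.22. Meiob, which binds single-stranded DNA in meiotic recombination, went from 4.38 TPM to 1.02 and 0.683. Tex12, of the central element of the synaptonemal complex, went from 2.18 TPM to 0.214 and 0.211. The levels of Tex12 rest on 45 reads over the group without cytokine, 4 with LIF and 5 with OSM. Dmc1, the recombinase of meiosis, went the other way, from 4.85 TPM to 18.2 and 16.2, log2 fold changes of 1.72 and 1.56. The called genes of this list thus included cohesin, recombination and synaptonemal complex genes, and genes of recombination stood on both sides.

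Of 18 other piRNA pathway genes, 17 were in the table and 13 were tested. With LIF and with OSM alike 3 of these were called higher and 4 lower than without cytokine, with median log2 fold changes of -0.25 and -0.50. All genes tested had shares of 13.3% higher and 8.09% lower with LIF, and of 14.2% and 7.86% with OSM. Their medians were 0.17 and 0.18. After rescaling 2 were called higher and 5 lower with OSM. Rnf17, a Tudor domain protein of germ cells, went from 13.8 TPM without cytokine to 57.7 with LIF and 55.2 with OSM, log2 fold changes of 1.99 and 1.92. Tdrd12, another Tudor protein, went from 20.3 TPM to 50.8 and 59.1. Tex19.2 went the other way, from 4.06 TPM to 0.506 and 0.500, log2 fold changes of -1.75 in both, and Fkbp6, a co-chaperone, from 7.90 TPM to 2.76 and 1.85. Tex19.2 had 171 reads over the group without cytokine, 19 with LIF and 23 with OSM. Some of these could be shared with Tex19.1, which had a far higher level in every group, so the level of Tex19.2 is uncertain. As in the 10 genes, both directions were present. Between OSM-ESCs and LIF-ESCs 0 genes of either list were called in limma, while 17 of the 18 meiosis genes and 10 of the 13 piRNA genes had a lower mean with OSM, 6 and 4 of them at an unadjusted p under 0.05. Higher with OSM at that p were 1 meiosis gene and 2 piRNA genes. Of all genes tested, 5.5% were lower at that p and 15.3% passed it in either direction.

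**Figure D4:**
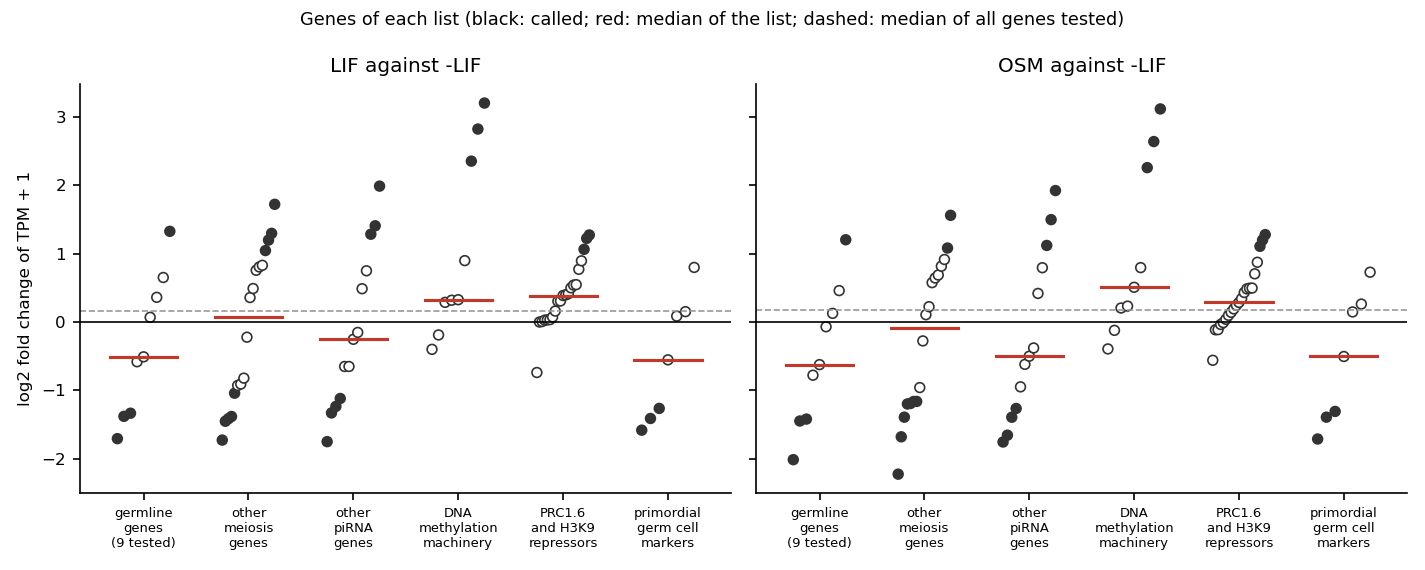
Log2 fold change of TPM + 1 (vertical axis) of each tested gene in 6 lists, for LIF-ESCs against -LIF-ESCs on the left and OSM-ESCs against -LIF-ESCs on the right. Black points are called, the red line is the median of the list and the dashed line that of all genes tested. The germline, meiosis and piRNA lists hold called genes on both sides of 0, those of the primordial germ cell list are all below 0, and the called genes of the methylation and repressor lists are all above it.

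The machinery that writes, keeps and removes DNA methylation was measured in the same libraries. All 9 genes of the list were tested, and 3 were called higher with LIF and with OSM than without cytokine and 0 lower. The shares over all genes tested were 13.3% higher and 8.09% lower with LIF, and 14.2% and 7.86% with OSM. Dnmt3l, the cofactor that stimulates new methylation, was at 37.1 TPM on average without cytokine, 349 with LIF and 329 with OSM, log2 fold changes of 3.20 and 3.11. Tet1 and Tet2, which oxidise methylated cytosine, were called as well, Tet1 from 17.4 TPM to 92.7 and 86.8 and Tet2 from 1.87 TPM to 19.3 and 16.9. The DNA methyltransferases themselves moved less. Dnmt1 was at 70.5, 86.3 and 83.0 TPM, Dnmt3b at 88.6, 111 and 126 TPM and Dnmt3a, the only gene of the list that was lower at an adjusted p under 0.05, at 15.5, 11.5 and 11.5 TPM. Uhrf1, which guides Dnmt1, was at 128, 160.5 and 147.5 TPM, Hells, a chromatin remodeller, at 78.7, 147.5 and 137.5 TPM, and Tet3 at 2.59, 2.14 and 2.29 TPM. At an adjusted p under 0.05 alone, 7 of the 9 genes were higher and 1 lower with either cytokine. Dnmt1, Dnmt3b, Uhrf1 and Hells were among these 7. By this rule 42.2% of all genes tested were higher and 25.9% lower with LIF, and 42.9% and 25.4% with OSM.

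Of 21 genes of PRC1.6 and of histone H3 lysine 9 repression, all were tested, and with LIF and with OSM alike 3 were called higher and 0 lower, with median log2 fold changes of 0.39 and 0.29. The 3 genes are a share of the list close to that of all genes tested called higher, 13.3% with LIF and 14.2% with OSM. After rescaling 2 were called higher in each. Mga, the large DNA-binding subunit of PRC1.6, was at 20.9 TPM without cytokine, 50.1 with LIF and 49.3 with OSM, log2 fold changes of 1.22 and 1.2. Rybp, a subunit of several PRC1 complexes, was at 32.7, 80.3 and 80.6 TPM, and the deacetylase Hdac1 at 106, 222.5 and 229.5 TPM. At an adjusted p under 0.05 alone, 13 of the 21 were higher and 1 lower with either cytokine. Over all genes tested these shares were 42.2% and 25.9% with LIF, and 42.9% and 25.4% with OSM. E2f6 was at 15.1, 15.5 and 15.6 TPM and Setdb1 at 28.8, 28.8 and 28.1 TPM, and neither passed the test. With either cytokine, Dnmt3l, Tet1, Tet2, Mga, Rybp and Hdac1 were thus called higher. Of the methylation machinery, Dnmt1, Dnmt3b, Uhrf1 and Hells were higher and Dnmt3a was lower at an adjusted p under 0.05 only. In the same libraries Dazl, Mael and Tex101 were called lower and Hormad1 was called higher. At an adjusted p under 0.05 only, Tex19.1 and Slc25a31 were lower and Sycp3 was higher with either cytokine. The part of the methylation and repressor genes in the levels of these germline genes was not tested.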

How the data were processed

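RNA of 6 mESC libraries at passage 10 was measured, 2 per group. The submitters' processing notes name Trimmomatic, HISAT2, featureCounts and mm10, and per the study's methods the authors aligned reads with HISAT2 and counted them with featureCounts. They deposited 1 table of TPM. How TPM was computed, tool versions, annotation, strand setting and the handling of reads with several matches are not given in the sources used here. Each library sums to between 999949 and 999966.

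Groups followed the treatment labels. Exon lengths and positions came from GENCODE M21 (GRCm38), which held 28405 symbols (99.4%) once. TPM times length gave whole reads, within 0.02, for 26956 genes (94.9%). Log2(TPM + 1) of 18556 genes that reached 1 TPM in 2 or more libraries was fitted with limma 3.58.1 in R 4.3.3 (eBayes with a trend), with 3 residual degrees of freedom and 1 spread for the 3 groups. P-values were adjusted over all these genes by the Benjamini-Hochberg method. The steps were tested on simulated data. Promoter windows came from RefSeq (GRCm38.p6). Plots were drawn with matplotlib 3.10.9, and tables were made with pandas 2.3.3 and numpy 2.4.6 under Python 3.11.15.

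The 10 genes and the lists were chosen with earlier results of these data known, and the lists came from general knowledge. All 10 genes are named. Of each other list, up to 4 called genes with the largest mean change against -LIF-ESCs are named, and any gene of the methylation machinery. E2f6, Setdb1, Nanog and the markers given as checks of other cell types were named after their values were seen. Alternatives were a pseudocount of 0.1, no filter or 5 TPM, no trend, a fit of 2 groups, a replicate block, TPM rescaled to a common median ratio, another rule for a call, limma's voom on recovered reads and each library left out.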

Additional observations from a re-analysis of the deposited data

How the results depend on the processing

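For the 10 germline genes, counts depended most on the limit on the fold change. With an adjusted p under 0.05 and no limit on the fold change, 8 of 9 genes passed with LIF and 7 of 9 with OSM against -LIF-ESCs, in place of 4 and 4. Of all genes tested, 42.2% were higher and 25.9% lower by this rule with LIF, and 42.9% and 25.4% with OSM. Counts were 3 and 3 with a filter of 5 TPM, which removed Tex101 and Slc25a31 from the genes tested. With each library left out in turn, where the lone library of a group is assumed to vary like the others, counts stayed at 4 and 4 against -LIF-ESCs and at 0 for OSM-ESCs against LIF-ESCs. Over the other lists the counts with a library left out were 8 to 11 for meiosis genes with OSM and 8 to 9 with LIF.

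Of 372 log2 fold changes of single germline genes under the alternatives, 354 kept their direction and their side of an adjusted p of 0.05. The 10 that changed direction belonged to differences that had not passed the test. By construction the log2 fold change could not move with another filter, without a trend, in a fit of 2 groups or with the replicate block. Nor could it move when a library outside the comparison was left out. Only the adjusted p could change in these alternatives, so their kept directions carry no information. Stk31 with LIF was at -0.0899 after rescaling and -0.072 in voom, and between -0.0744, without -LIF replicate 2, and 0.212 with each library left out. Ddx4 with OSM was at -0.0522 after rescaling and -0.0112 in voom, and between -0.0145, without OSM replicate 1, and 0.267. With each library left out, Stk31 with OSM lay between -0.213 and 0.0733, and between OSM and LIF, Mael lay between -0.163 and 0.027 and Tex19.1 between -0.0843 and 0.000165. The cause was not tested.

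Same-numbered libraries showed no shared deviation. The deviations of replicate 1 from the group mean had a correlation across genes of -0.04 between -LIF-ESCs and LIF-ESCs. It was -0.02 between -LIF-ESCs and OSM-ESCs and 0.03 between LIF-ESCs and OSM-ESCs. With 2 libraries a group, this cannot show whether same-numbered libraries were handled together. With the replicate block 4 germline genes were called with LIF, 4 with OSM and 0 between them. Over all genes tested, the calls between OSM-ESCs and LIF-ESCs fell from 6 higher and 9 lower to 0 and 0 with the block and to 0 and 0 in a fit of these 2 groups alone, and were 23 and 28 in voom and 3 and 3 with a pseudocount of 0.1. Depth limits Asz1 and Tex101, which rest on at most 8 and 39 reads in a library.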

Other observations

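Markers of primordial germ cells, the embryonic cells in which germline genes come back on, were measured as well. All 7 were tested, and 3 were called lower with LIF and with OSM than without cytokine and 0 higher. The shares over all genes tested were 8.09% lower and 13.3% higher with LIF, and 7.86% and 14.2% with OSM. Dnd1, an RNA-binding protein that germ cells need to survive, was at 29.6 TPM on average without cytokine, 9.21 with LIF and 8.41 with OSM, log2 fold changes of -1.58 and -1.71. Dppa3, also known as Stella, which protects DNA methylation marks in the early embryo, was at 104, 38.7 and 41.6 TPM, and Kit, the receptor of stem cell factor, at 19.3, 7.47 and 6.75 TPM. Prdm1, the factor that starts the germ cell programme, was higher with a cytokine at an adjusted p under 0.05, at 5.72, 10.7 and 10.2 TPM, without being called. Prdm14 at 12.3, 13.7 and 13.7 TPM and Nanos3 at 2.56, 2.87 and 3.27 TPM did not pass the test. The median log2 fold change of the list was -0.55 with LIF and -0.50 with OSM, against 0.17 and 0.18 over all genes tested. These markers are also active in stem cells, so their levels do not show that germ cells were present. Prdm1, Prdm14 and Nanos3 were named after their values were seen.

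Genes of the 2-cell embryo, 6 of 7 of which were in the table, failed the filter of 1 TPM. Their summed TPM was 3.07 and 2.51 without cytokine, 0.564 and 0.768 with LIF and 0.393 and 0.308 with OSM, on 8 to 66 reads a library. The Zscan4 and Tcstv genes have near-identical copies, so their reads are uncertain. The direction of these sums is the reverse of the study's qPCR, which found Zscan4, Tcstv1 and Tcstv3 much lower without cytokine. By staining and flow cytometry, the study found similar shares of Zscan4-positive cells with OSM and with LIF.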
